A study of Mus musculus with 6 samples.

Results

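The 10 genes described here, of 37620 in each table, mark cells on the way to becoming neurons: the transcription factors Neurog2, Eomes, Neurod1 and Neurod2, the microtubule proteins Dcx, Tubb3 and Stmn1, the secreted proteins Igfbpl1 and Draxin, and the calcium-binding protein Calb2. They were chosen by name, and each symbol matched 1 gene. Reads per gene were measured by RNA sequencing in whole hippocampus of 3 mice labelled miR17-92 knockout and 3 wildtype mice, all C57BL/6, aged 13 weeks and each from a litter of its own. The labels give no treatment, no Cre driver, no deleted interval and no cell type in which the deletion was made. Gene counts per library ran from 26439693 to 57246827, the lowest being knockout replicate 2 and the highest knockout replicate 3.

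In the adult dentate gyrus, radial glia-like stem cells give rise to intermediate progenitors, which divide and become immature granule neurons. In cortical and hippocampal development Neurog2 starts the neuronal program, Eomes (Tbr2) marks the intermediate progenitor, and Neurod1 and Neurod2 follow as cells differentiate. Doublecortin, the product of Dcx, and calretinin, the product of Calb2, are held for a time by the immature granule neuron and then given up as calbindin, the product of Calb1, appears. The miR-17-92 cluster is a polycistron whose microRNAs are known to favour proliferation of progenitors.

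The microRNAs of the cluster are shown with their seeds (bases 2 to 8, in capitals), because the seed decides which 3' UTR words they pair with. They come from RefSeq on GRCm38.p6, where all lie on the plus strand of chromosome 14.
mmu-miR-17-5p: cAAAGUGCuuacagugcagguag
mmu-miR-20a-5p: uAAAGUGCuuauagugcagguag
mmu-miR-18a-5p: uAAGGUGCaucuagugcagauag
mmu-miR-19a-3p: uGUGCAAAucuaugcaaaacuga
mmu-miR-19b-3p: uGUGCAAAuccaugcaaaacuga
mmu-miR-92a-3p: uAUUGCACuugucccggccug
miR-17 and miR-20a share a seed, as do miR-19a and miR-19b. In the same RefSeq table mature miR-19b-3p and miR-92a-3p are also listed at a locus on chromosome X.

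Of the 10 genes 5 hold a 7-base word opposite such a seed in their longest annotated 3' UTR, each of them 1 word, and these are the 4 transcription factors and Dcx. The windows below give that word in capitals, with up to 12 bases before and 6 after it, in the sense of the transcript (GENCODE M21).
Neurog2, miR-17 and miR-20a word: cctctctgatgtGCACTTTgttttt
Eomes, miR-92a word: gtatcctgttttGTGCAATtctctg
Neurod1, miR-19a and miR-19b word: tatcacatacaaTTTGCACtctttc
Neurod2, miR-17 and miR-20a word: gcgcggatctgtGCACTTTggtgaa
Dcx, miR-17 and miR-20a word: gttgaaagtaagGCACTTTcctact
The words searched were GCACTTT for miR-17 and miR-20a, GCACCTT for miR-18a, TTTGCAC for miR-19a and miR-19b, and GTGCAAT for miR-92a, on the transcript strand only. Since each of the 5 genes holds 1 word, none overlaps another. In all, 35% of the 14542 tested genes that have a 3' UTR annotation held a word of at least 1 of the 4 seed families. The Dcx 3' UTR is long, at 7709 bases, and of 276 genes with a 3' UTR within 20% of that length 49.3% held the miR-17 and miR-20a word. The share with that word was 10.3% at the length of the Neurog2 3' UTR (1111 bases) and 15.8% at that of Neurod2 (1770 bases). For Eomes (1120 bases) 4.9% of genes of like length held the miR-92a word, and for Neurod1 (1443 bases) 13.2% held the miR-19 word. These shares are for the word found, while each gene was searched for all 4 words. At the Eomes length 10.3% held the miR-17 and miR-20a word, 6.19% the miR-18a word and 9.49% the miR-19 word. At the Dcx length 34.8% held the miR-18a, 42.4% the miR-19 and 28.3% the miR-92a word. The share of genes of like length with at least 1 of the 4 words was not computed. None of the 4 words was in the windows searched for Igfbpl1, Calb2, Tubb3, Draxin and Stmn1. A word is a match of letters and was not shown here to be bound.

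The cluster's host transcript Mir17hg, given first as the check on the labels, held 30, 35 and 37 reads in knockout replicates 1 to 3, against 43, 47 and 36 in wildtype replicates 1 to 3. As CPM (reads of the gene scaled to the TMM library size), the mean was 0.970 ± 0.342 for knockout libraries and 1.09 ± 0.0328 for wildtype libraries (SD, n = 3 each), with an edgeR adjusted p of 0.813. The genotypes overlapped in CPM. All 6 microRNA hairpins stood at 0 reads in both genotypes. In GENCODE M21 they lie inside exons of Mir17hg on the same strand, and reads on overlapping genes may be counted for neither. The loss of the cluster could therefore not be checked from these tables.

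None of the 10 genes passed the test between genotypes. With edgeR's quasi-likelihood test and Benjamini-Hochberg adjustment over 16432 genes, 0 of the 10 had an adjusted p under 0.05, where 0% of all genes passed. By DESeq2 the count was also 0 of the 7 that it gave an adjusted p, where 1.26% of all genes were called. At an unadjusted edgeR p under 0.05 there were 2 of the 10, Dcx and Tubb3, both lower in knockout, beside 10.6% of all genes (5.58% lower and 5.05% higher). Libraries of the genotypes did not overlap for 2 of the 10, Tubb3 lower and Stmn1 higher in knockout, beside 16.6% of all genes (8.34% lower and 8.29% higher). Of the 10 genes 4 had a positive and 6 a negative log2 fold, with a median of -0.10, where 50% of all genes tested were negative and their median was 3.93e-05. In a whole hippocampus, fewer cells of a type and less RNA per cell cannot be told apart.

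**Figure D1:**
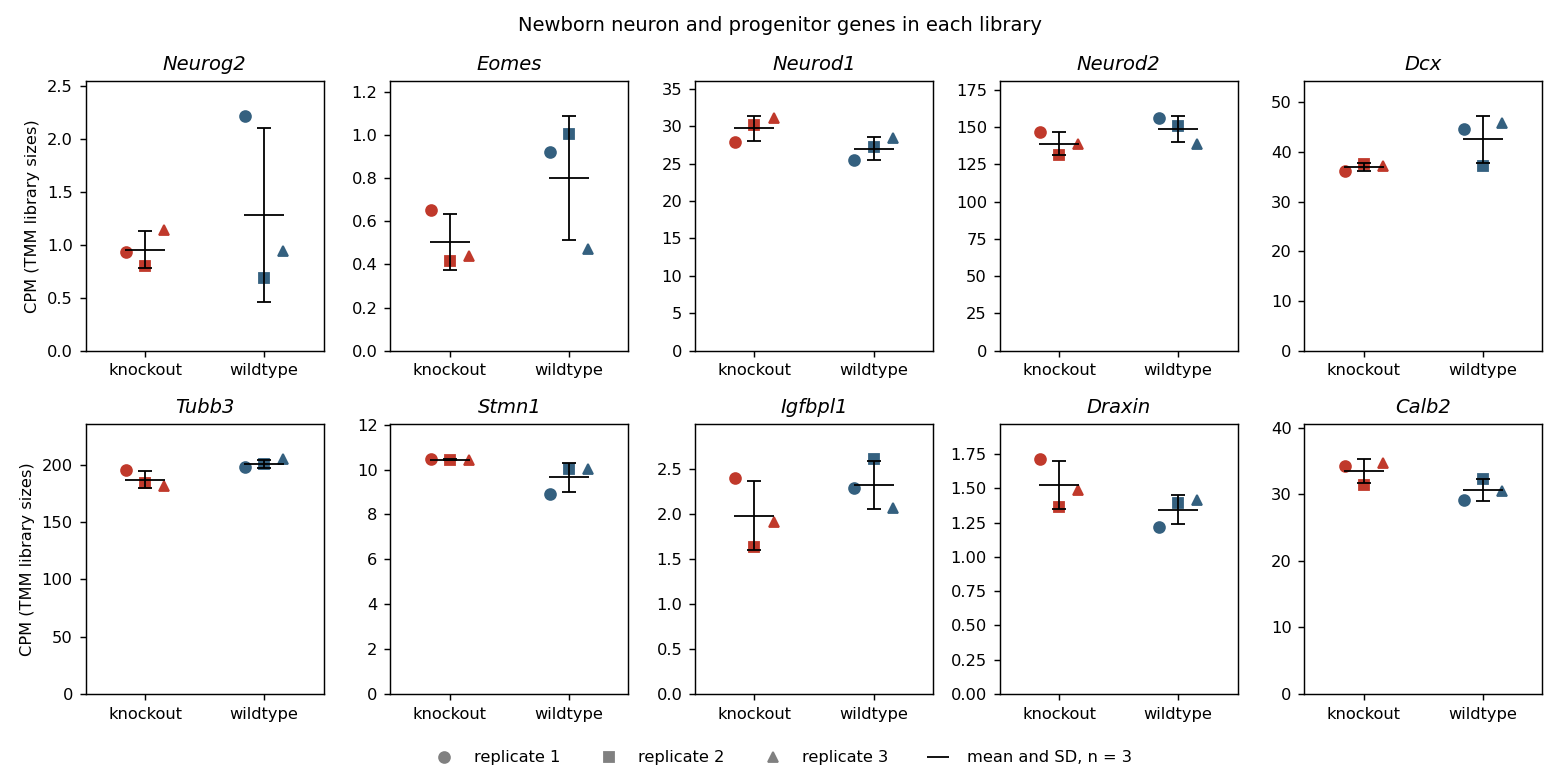
Level of each gene in CPM (TMM library sizes, vertical axis from 0) in 3 knockout libraries (red) and 3 wildtype libraries (blue), with symbols for the replicates and bars for mean and SD. The 3 knockout values of Dcx lie between 36.1 and 37.6 CPM, with wildtype replicate 2 at 37.2 CPM among them, and for Neurog2 wildtype replicate 1 stands above the other 5 libraries.

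Neurog2, a proneural bHLH factor of early progenitors, was close to the floor of detection. It held 30, 21 and 65 reads in the knockout libraries, against 89, 30 and 30 reads in the wildtype libraries. That is 0.933, 0.797 and 1.14 CPM in knockout, against 2.22, 0.686 and 0.941 CPM in wildtype. Wildtype replicate 1 was far above the other 5 libraries, wildtype replicate 3 lay inside the knockout range and wildtype replicate 2 just below it. The log2 fold of -0.40 (SE 0.41, edgeR adjusted p = 0.762) became 0.27 without wildtype replicate 1 (edgeR adjusted p = 0.827), so 1 library decided its sign. It was -0.72 without wildtype replicate 2.

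Eomes, the T-box factor that marks intermediate progenitors, was the lowest of the 10 genes. It held 21, 11 and 25 reads in the knockout libraries, against 37, 44 and 15 reads in the wildtype libraries. In CPM it stood at 0.653, 0.418 and 0.438 in knockout, against 0.922, 1.01 and 0.471 in wildtype. Wildtype replicates 1 and 2 were above every knockout library, while wildtype replicate 3 lay between knockout replicates 1 and 3. The log2 fold was -0.70 (SE 0.34, edgeR adjusted p = 0.517), with an unadjusted 95% interval from -1.47 to 0.08. It was -0.95 without wildtype replicate 3 and -0.50 without wildtype replicate 2. The coefficient of variation was 25.9% in knockout and 36.0% in wildtype.

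Neurod1, a bHLH factor that progenitors switch on as they commit to the granule fate and that granule neurons continue to express, had 795 to 1771 reads per library. Its level was 27.9, 30.2 and 31.0 CPM in knockout, against 25.4, 27.2 and 28.4 CPM in wildtype. The ranges overlapped, with knockout replicate 1 below wildtype replicate 3. Between genotypes the log2 fold was 0.14 (SE 0.07, edgeR adjusted p = 0.506), and it stayed between 0.10 and 0.18 when any 1 library was left out. In GENCODE M21 exons of Neurod1 share 201 bases with Cerkl on the same strand, and Cerkl itself held 65 to 175 reads per library.

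Neurod2, a related factor of differentiating and mature excitatory neurons, leaned the other way. It measured 146, 131 and 139 CPM in knockout, against 156, 151 and 139 CPM in wildtype. Knockout replicate 1 lay above wildtype replicate 3, so the genotypes overlapped. The log2 fold was -0.10 (SE 0.06, edgeR adjusted p = 0.590), and -0.06 without knockout replicate 2 or without wildtype replicate 1. The test of the difference between the folds of Neurod1 and Neurod2 was not run.

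Dcx, the microtubule-associated protein used as the standard marker of newborn granule neurons, had 991 to 2124 reads per library. Its level was 36.1, 37.6 and 37.2 CPM in knockout, against 44.6, 37.2 and 45.8 CPM in wildtype. All 3 knockout libraries were alike, and wildtype replicate 2 lay among them while wildtype replicates 1 and 3 were higher. The means were 37.0 ± 0.767 CPM in knockout and 42.5 ± 4.66 CPM in wildtype (SD, n = 3 each), so the coefficient of variation was 2.07% in knockout and 10.96% in wildtype. The log2 fold was -0.20, a fold of 0.871, with an SE of 0.08, an edgeR adjusted p of 0.424 and an unadjusted 95% interval from -0.38 to -0.02. Without wildtype replicate 2 it was -0.29, and without wildtype replicate 3 it was -0.15.

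Tubb3, the neuronal tubulin beta-III, is made by newborn neurons and kept by mature ones. It was the most abundant of the 10 genes, at 196, 184 and 182 CPM in knockout, against 198, 201 and 205 CPM in wildtype. Every knockout library was below every wildtype library, with knockout replicate 1 close to wildtype replicate 1. Its log2 fold was -0.10 (SE 0.04, edgeR adjusted p = 0.447), a fold of 0.930.

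Stmn1, which encodes the microtubule-destabilizing protein stathmin, stood at 10.45, 10.44 and 10.45 CPM in knockout, against 8.92, 10.01 and 10.01 CPM in wildtype. The knockout libraries were nearly equal and all above the wildtype libraries, of which replicate 1 was the lowest. Its log2 fold of 0.12 (SE 0.08, edgeR adjusted p = 0.659) became 0.06 without wildtype replicate 1. These values are uncertain, because the annotated gene Gm11223 on chromosome 4 is 97.6% identical to a Stmn1 transcript over 460 bases. Reads could be placed with the wrong gene or, where they fit both, be counted for neither. Gm11223 itself held 244, 195 and 9 reads in the knockout libraries, against 8, 4 and 5 reads in the wildtype libraries. Knockout replicates 1 and 2 thus stood apart from the other 4 libraries for this copy. The summed level of Stmn1 and Gm11223 was 18.0, 17.8 and 10.6 CPM in knockout, against 9.12, 10.1 and 10.2 CPM in wildtype. The part of Gm11223 in the Stmn1 values was not tested.

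Igfbpl1, a secreted relative of the insulin-like growth factor binding proteins that is read in newborn neurons, held 77, 43 and 109 reads in the knockout libraries, against 92, 114 and 66 reads in the wildtype libraries. It was 2.40, 1.63 and 1.91 CPM in knockout, against 2.29, 2.61 and 2.07 CPM in wildtype. Knockout replicate 1 was the highest after wildtype replicate 2, and the ranges overlapped. The log2 fold was -0.23 (SE 0.19, edgeR adjusted p = 0.686), and it moved between -0.38 without knockout replicate 1 and -0.12 without knockout replicate 2, with -0.14 without wildtype replicate 2.

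Draxin, a secreted guidance protein that inhibits Wnt signalling, had 55, 36 and 85 reads in the knockout libraries, against 49, 61 and 45 reads in the wildtype libraries. It was 1.71, 1.37 and 1.49 CPM in knockout, against 1.22, 1.39 and 1.41 CPM in wildtype. Knockout replicate 2 lay below wildtype replicates 2 and 3, so the genotypes overlapped. A log2 fold of 0.18 (SE 0.18, edgeR adjusted p = 0.750) was found, or 0.10 without knockout replicate 1 and 0.12 without wildtype replicate 1.

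Calb2, the calcium buffer calretinin, is carried for a time by immature granule neurons and lastingly by some interneurons, by mossy cells and by Cajal-Retzius cells. It measured 34.2, 31.4 and 34.7 CPM in knockout, against 29.1, 32.3 and 30.5 CPM in wildtype. Knockout replicate 2 lay within the wildtype range, and the other 2 knockout libraries were above it. The log2 fold was 0.13 (SE 0.06, edgeR adjusted p = 0.517). Summed marker levels of the other cell types that hold calretinin were 934 to 965 CPM in knockout and 932 to 959 CPM in wildtype for 10 interneuron genes. For 5 mossy cell genes they were 128 to 131 CPM in knockout and 116 to 121 CPM in wildtype, without overlap. Most of that sum was Ociad2, at 105 to 109 CPM in knockout and 93.2 to 101 CPM in wildtype. Ociad2 was the only gene of the 5 without overlap, beside 16.6% of all genes. For 7 Cajal-Retzius genes the sum was 137 to 150 CPM in knockout and 133 to 163 CPM in wildtype, most of it from Reln. The tissue of 7 thalamic genes borders the hippocampus. Their sum was 285 to 293 CPM in knockout and 289 to 300 CPM in wildtype, most of it from Adarb1. Shox2 alone among all list genes was at 0 reads in all 6 libraries, which allows up to 3 in each. The part of these other cells in the Calb2 values was not tested.

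**Figure D2:**
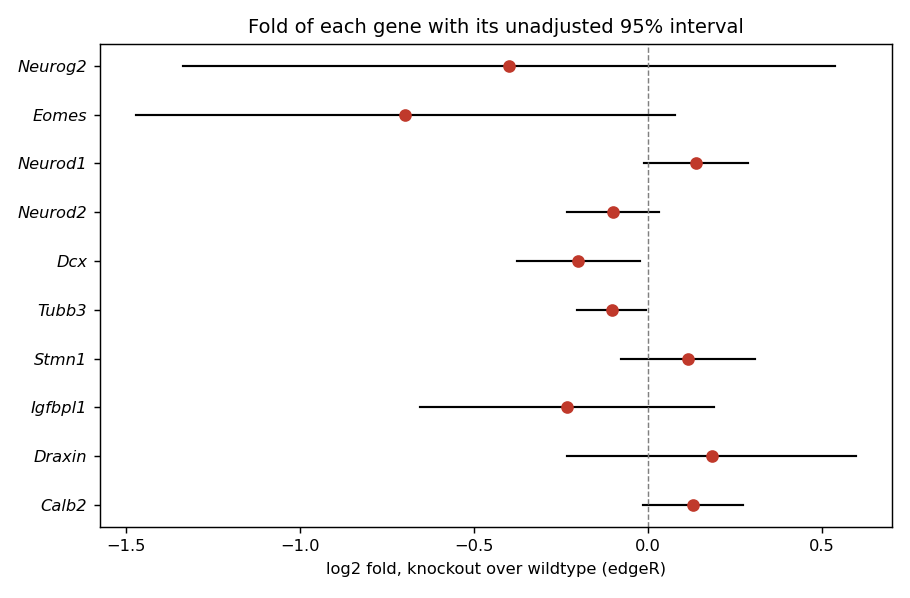
Log2 fold of each gene, knockout over wildtype (points), with the unadjusted 95% interval from edgeR (lines). The intervals of Dcx (-0.38 to -0.02) and Tubb3 (-0.20 to -0.01) lie below 0, the other 8 cross it, and the widest belong to Neurog2 and Eomes.

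Of the 5 genes with a word, 4 had a negative fold and Neurod1 a positive one, and of the 5 without, Igfbpl1 and Tubb3 were negative while Draxin, Calb2 and Stmn1 were positive. Over all tested genes with a 3' UTR the median log2 fold was 0.01 with a word and -0.01 without. No library was low for the whole set: knockout replicate 2 was the lowest of the 6 for 3 genes and below the median of the 6 for 7, while wildtype replicate 1 was the lowest for 4 genes and the highest for 2.

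**Figure D3:**
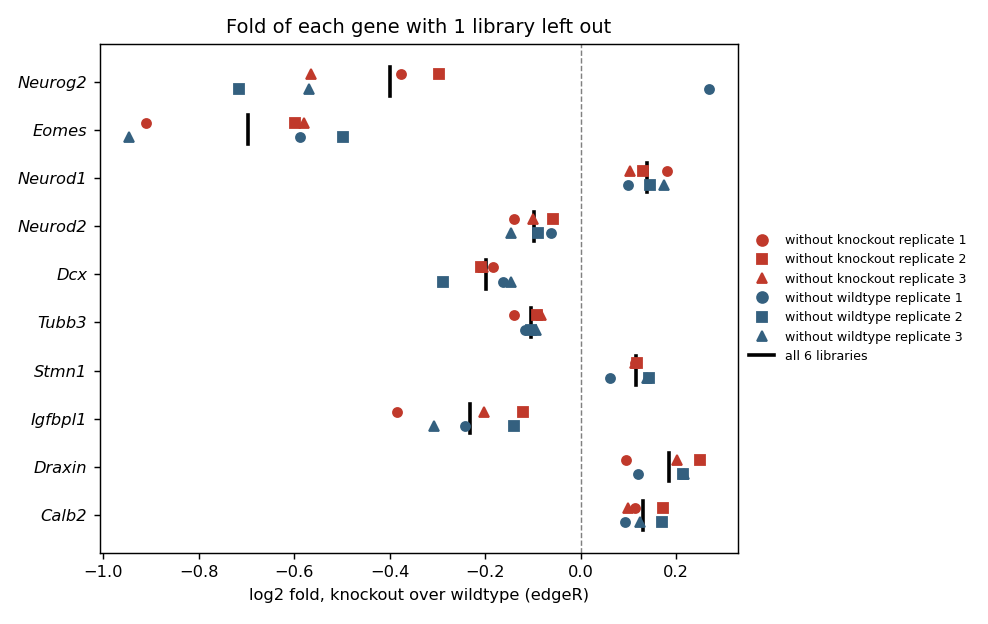
Log2 fold of each gene, knockout over wildtype, with all 6 libraries (black bars) and with 1 library left out (symbols, coloured by the genotype of the library left out). Neurog2 crosses 0 without wildtype replicate 1, where its log2 fold is 0.27, and the other 9 genes keep their side of 0.

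Levels between genes were compared per kilobase of exon (CPM per kilobase, exon lengths from GENCODE M21). Tubb3 was highest, at 100.2 ± 4.10 in knockout and 108 ± 1.88 in wildtype (SD, n = 3 each). Neurod2, Calb2, Neurod1, Stmn1 and Dcx followed in that order, with no overlap between neighbours over the 6 libraries, and Dcx spanned 2.86 to 3.62. Igfbpl1, Neurog2, Draxin and Eomes came last. Neighbours among these 4 overlapped, with Igfbpl1 at 0.502 to 0.802, Neurog2 at 0.308 to 0.996, Draxin at 0.235 to 0.329 and Eomes at 0.101 to 0.242.

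**Figure D4:**
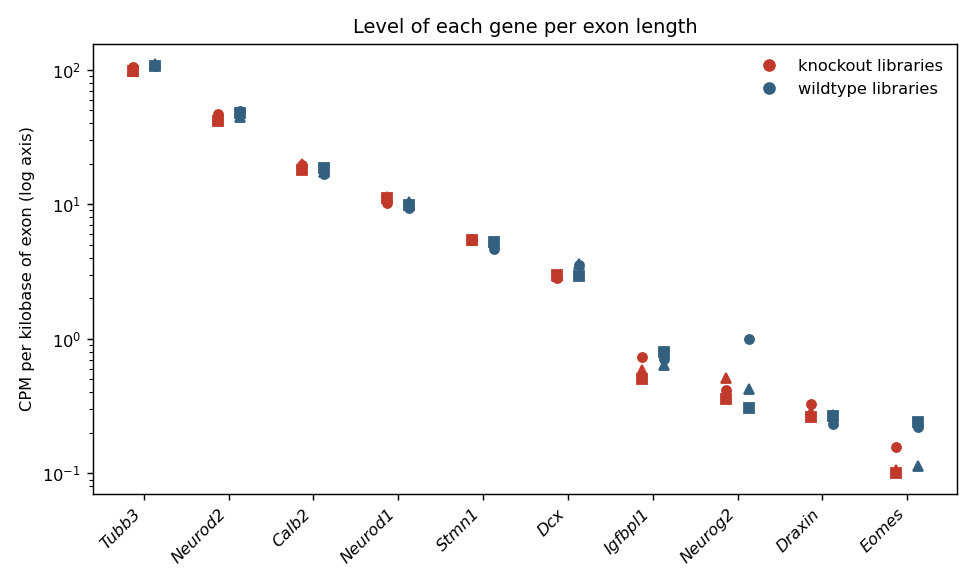
Level of each gene in CPM per kilobase of exon (log axis) in knockout libraries (red) and wildtype libraries (blue), with the genes in the order of their wildtype mean. Tubb3 is highest at 97.2 to 110 over the 6 libraries and Eomes lowest at 0.101 to 0.242.

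The ratio of Dcx to Prox1, a transcription factor of the whole granule lineage, does not depend on library size. It was 0.192, 0.207 and 0.222 Dcx reads per Prox1 read in knockout, against 0.262, 0.220 and 0.275 in wildtype. Knockout replicate 3 exceeded wildtype replicate 2, and the other 2 libraries of each genotype were apart. The log2 ratio was lower in knockout by a difference of -0.28, and the exact permutation test (two-sided) returned p = 0.2, where 3 against 3 libraries cannot go below 0.1. With Calb1 as denominator the difference was -0.66 (exact permutation p = 0.1). With the neuronal protein gene Rbfox3 it was -0.06 (exact permutation p = 0.6). The denominators themselves differed: log2 folds were 0.09 for Prox1, 0.46 for Calb1 and -0.14 for Rbfox3 (edgeR adjusted p of 0.576, 0.0624 and 0.475).

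Genes whose pattern over the 6 libraries was most like that of Dcx were Thada, Adcy7, Baz2b, Csmd2 and Doc2b. Their centred log2 CPM differed from that of Dcx by a root mean square of 0.0336 to 0.0421. The median over 10961 genes was 0.159, and these genes lie below it because they were picked as the smallest. Within the set Tubb3 was nearest, at 0.115, and Eomes, with 11 to 44 reads per library, was farthest, at 0.480.

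The other genes of the lineage gave no call with edgeR either. Of 30 further genes of newborn neurons and progenitors 17 had a positive and 13 a negative log2 fold, with a median of 0.01, and 0 were called with edgeR. By DESeq2 1 of the 30 was called, beside 1.26% of all genes: Btg2, an antiproliferative gene of committed progenitors that is also induced by neuronal activity. Btg2 measured 23.9, 24.0 and 19.8 CPM in knockout, against 43.9, 36.3 and 26.8 CPM in wildtype, a log2 fold of -0.67 (SE 0.16, edgeR adjusted p = 0.285, DESeq2 adjusted p = 0.00123). All 3 knockout libraries were below all 3 wildtype libraries. The neuronal stathmin Stmn2 was at a log2 fold of 0.12 (SE 0.04). Bhlhe22, a bHLH factor of differentiating neurons, was at 0.21 (SE 0.07), and both were without overlap between genotypes. Of the 30 genes, 4 stood higher and 2 lower in knockout without overlap, beside 8.29% and 8.34% of all genes.

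Upstream of these stages, 14 stem and transit amplifying genes had 6 positive and 8 negative folds, a median of -0.02 and 0 calls with edgeR. Among the transcription factors of stem cells and astrocytes, Sox9 was at a log2 fold of -0.33 (SE 0.08) and Sox2 at -0.30 (SE 0.11). Gfap, which encodes the astrocyte and stem cell filament protein, was at 0.27 (SE 0.11). By DESeq2 1 of the 14 was called, beside 1.26% of all genes: Sox9 (DESeq2 adjusted p = 0.0449, edgeR adjusted p = 0.286). Not all of the 14 were given an adjusted p by DESeq2. Of 12 proliferation genes 11 were tested with edgeR, 2 with a positive and 9 with a negative fold, at a median of -0.14. Of all genes tested, 50% had a negative fold. None of the 11 proliferation genes was called with edgeR. DESeq2 called 0 of the proliferation genes as well, but gave no adjusted p to several of them, Ccnb2 and Aurkb included. Ccnb2, a mitotic cyclin, had the smallest p among them, with 26, 26 and 53 reads in the knockout libraries, against 56, 61 and 30 reads in the wildtype libraries, and a log2 fold of -0.46 (SE 0.23). The cyclin Ccna2 was at -0.23 (SE 0.18). Aurkb, a mitotic kinase, was near the floor with 9, 7 and 11 reads in the knockout libraries, against 21, 16 and 5 reads in the wildtype libraries, at a log2 fold of -0.58 (SE 0.45). The 2 positive folds were those of Cdk1, at 0.41 (SE 0.35), and Top2a, at 0.06 (SE 0.15). Cdk1 was also near the floor, with 10, 13 and 17 reads in the knockout libraries, against 12, 12 and 7 reads in the wildtype libraries. Mki67 was at -0.07 (SE 0.18). The sum over all 12 genes was 31.3 to 33.1 CPM in knockout and 32.0 to 36.6 CPM in wildtype.

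Downstream, 9 of 10 genes of mature granule neurons had a positive fold, with a median of 0.15. None was called with edgeR, and 3 were called higher with DESeq2: Calb1, Pter and Mc4r, with log2 folds of 0.46, 0.40 and 0.62, where DESeq2 called 1.26% of all genes and 50% of all folds were negative. The sum over all 10 was 985 to 1019 CPM in knockout and 863 to 891 CPM in wildtype. That sum includes Calb1, at 168 to 180 CPM in knockout and 118 to 136 CPM in wildtype. It also includes Pter, at 140 to 153 CPM in knockout and 106 to 118 CPM in wildtype. Of the 10 genes, 4 stood higher and 0 lower in knockout without overlap, beside 8.29% and 8.34% of all genes. For 10 genes of all neurons 8 folds were positive, at a median of 0.07 and 0 calls with either tool. These genes had been seen in earlier results of the same libraries and add no independent support.

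Markers of other cells near the dissection are set beside the set as values. All 7 meningeal genes had a positive fold with a median of 0.42, where 50% of all folds were negative. With edgeR 0 were called and with DESeq2 2, beside 1.26% of all genes. The sum over all 7 was 305 to 419 CPM in knockout and 233 to 276 CPM in wildtype. Most of that sum was Ptgds, at 205 to 304 CPM in knockout and 152 to 198 CPM in wildtype. For 8 genes of oligodendrocyte precursors 3 folds were positive and 5 negative, with a median of -0.06. The median log2 fold was -0.01 for the interneuron, 0.13 for the mossy cell, -0.03 for the Cajal-Retzius and -0.05 for the thalamic genes, each list with 0 calls in edgeR and DESeq2. Their part in the values of the 10 genes was not tested.

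**Figure D5:**
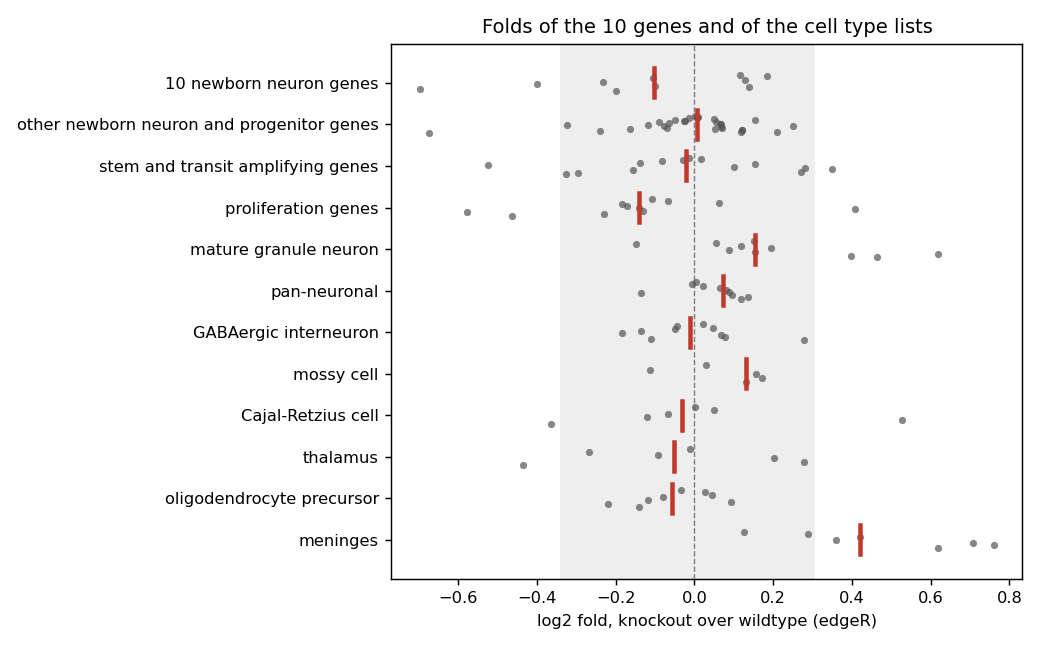
Log2 fold, knockout over wildtype, of each tested gene (points) of the 10 newborn neuron genes and of 11 other lists, with the median of each list (red bars) and the range from the 5th to the 95th percentile of all tested genes (grey band, -0.34 to 0.30). The 10 genes centre at -0.10 with Neurog2 and Eomes left of the band, and the meningeal genes centre at 0.42.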

How the data were processed

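The authors deposited raw read counts per Ensembl gene, 1 table a mouse. The submitters' processing notes name mm9, DESeq2, HTSeq, SAMtools, STAR 2.3.0e and FastQC 0.10.1, with no roles. Neither the annotation nor the strandedness of the counting is given in the sources used here. Reads on overlapping genes may have been counted for neither, and which genes this touched is therefore not known. Rows that name no gene (5 per table, 38.0% to 40.3% of the total) stayed out of every step. Names, exon lengths and 3' UTRs are those of GENCODE M21 (GRCm38), so no coordinates are printed.

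Genotypes were compared with edgeR 4.0.16 (quasi-likelihood, filterByExpr, TMM, R 4.3.3), adjusted over all genes tested. All 10 genes passed the filter. Alternatives included DESeq2 1.42.0, limma-voom (limma 3.58.1), other scalings and filters, and leaving out each library. DESeq2 gave no adjusted p to some genes with few reads, so its counts of calls leave those genes out. Near-identical copies were transcripts at least 95% identical over 200 bases. The edgeR fit was run on counts simulated from its own means and dispersions. This checks the code, not how well the model describes these mice.

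The 10 genes, the lists, the tests and the rule for naming genes (the 10, Mir17hg, Prox1, the 5 genes most like Dcx at a mean of at least 5 CPM, and up to 3 genes of smallest p per list) were chosen with earlier results of these data known. Rbfox3, Cerkl, Gm11223, Shox2, Reln, Adarb1, Cdk1, Top2a and Mki67 fall outside that rule. Replicates are separate mice, so p-values measure the spread between animals. No 2 mice share a litter, so equal replicate numbers do not pair libraries by litter.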

Additional observations from a re-analysis of the deposited data

How the results depend on the processing

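None of the 10 genes was called under any of the 15 alternatives, where 7 to 10 of them were given an adjusted p. Of 138 folds refitted for single genes, 137 kept their direction, and none came with an adjusted p under 0.05. DESeq2 gave Eomes, Neurog2 and Draxin a fold but no adjusted p. The exception in direction was Neurog2, at 0.27 without wildtype replicate 1 and down to -0.72 without wildtype replicate 2. Over all genes, edgeR called 0 with all 6 libraries, 62 with no filter beyond 1 read, 15 with the robust fit, 18 at an adjusted p of 0.10, and DESeq2 163. With a library left out the count lay between 0 and 17: it was 17 when this was knockout replicate 3, 16 for wildtype replicate 2 and 2 for replicate 1 of either genotype. The cause was not tested. Adding a replicate block to the edgeR fit left 0 genes called, and 0 of the 10. Libraries of equal number did not deviate together. Deviations from the group means of knockout and wildtype libraries of equal number correlated at -0.10, -0.02 and -0.15 over genes, in no case the best match. Such deviations are not free of each other within a genotype, so this check is weak. The Dcx to Prox1 difference ran from -0.38 to -0.22 with 1 library left out. Eomes, Neurog2, Igfbpl1 and Draxin held as few as 11, 21, 43 and 36 reads in a library, and how much of their spread is counting error was not tested.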

Other observations

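Gm11223, an annotated gene nearly identical to Stmn1, was outside the main test because the filter on low counts removed it, and was singled out after its values were seen. It stood at 7.59, 7.40 and 0.158 CPM in knockout replicates 1 to 3, against 0.199, 0.0914 and 0.157 CPM in wildtype replicates 1 to 3. The genotypes overlapped, since knockout replicate 3 lay within the wildtype range. Stmn1 itself differed little between knockout replicates 1 and 2 (10.45 and 10.44 CPM) and knockout replicate 3 (10.45 CPM).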
